A study of Mus musculus with 4 samples.

Results

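The insulin-like growth factor (IGF) axis was followed through mouse adipose tissue by its 10 members, of 32290 features in the count tables. These were the ligands Igf1 and Igf2, the receptors Igf1r and Igf2r, and the binding proteins Igfbp2, Igfbp3, Igfbp4, Igfbp5, Igfbp6 and Igfbp7, each chosen by its gene symbol. IGF1 and IGF2 are secreted growth factors that signal through the receptor tyrosine kinase IGF1R, while IGF2R carries IGF2 to the lysosome for breakdown. The binding proteins hold the ligands in the extracellular fluid, where proteases such as those of the pappalysin family can set them free. In adipose tissue the axis is known for promoting the growth of stromal progenitors and their differentiation into adipocytes.

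Single cells were profiled in 4 libraries, 1 for each group, namely WT SC and KO SC (subcutaneous tissue), WT IP and KO IP (visceral intraperitoneal tissue). The KO mice were Tie2e-cre; TERTfl/fl; mTmG and the WT mice were Tie2e-cre; TERT+/+; mTmG, so both genotypes carried the Cre recombinase and the mTmG reporter. All were male, 7 months old and had been fed a high-fat diet (HFD) for 5 months. The Cre was driven by Tie2 regulatory sequence, which is active in endothelial cells (EC) and in part of the haematopoietic lineage, and not in adipose stromal cells (ASC) as a rule. How many mice entered a library was not stated, and the material is called cells in one label and nuclei in another.

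The 4 tables held 700 to 2115 barcodes and 10015201 to 15533961 unique molecular identifiers (UMI, 1 per captured transcript) each, and 518 to 1862 cells per library were analysed. Tert, the targeted gene, had 2 to 9 UMIs per library after filtering, too few to check the genotype. The libraries KO SC and WT IP shared 93 barcodes, whereas no other pair shared more than 1. The KO SC copies held a median of 1.71% of the UMIs of the WT IP copies, and all 77 of them that were called ASC were also ASC in WT IP. The 93 copies were therefore left out of KO SC, and values with them are given where they differ.

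Cells were assigned to classes by the UMIs of fixed marker genes. ASC numbered 104 (WT SC), 129 (KO SC), 287 (WT IP) and 220 (KO IP). Their 7 markers, among them Pdgfra, Col1a1 and Dcn, were all seen and together made 33241 CPM (UMIs of a gene scaled to a fixed total of the class UMIs). The 6 T cell markers reached 9.55 CPM in ASC, the 6 macrophage markers 10.3 CPM and the 7 endothelial markers 9.27 CPM. T cells numbered 467, 1162, 121 and 131 in the same order of libraries, whereas only 24 EC and 23 mural cells were found in all. The EC numbered 1, 1, 17 and 5 in that order, so their pooled levels rest mostly on WT IP. Of the 24 EC, 18 had a UMI of Prox1 or Mmrn1, lymphatic markers that are part of the endothelial list. Mesothelial cells mostly stayed unassigned by the class rule, and 35 cells with at least 3 of the 7 mesothelial markers are described as mesothelial-marker cells, a definition made after values were seen. Of these, 3 of the 4 in WT IP and all 31 in KO IP were unassigned. The 35 cells were deep, with 1664135 UMIs in all, beside 14340758 UMIs in 740 ASC. Whether some were droplets of mixed cells was not tested.

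The members lie on chromosomes 1 (Igfbp2 and Igfbp5), 5 (Igfbp7), 7 (Igf2 and Igf1r), 10 (Igf1), 11 (Igfbp3 and Igfbp4), 15 (Igfbp6) and 17 (Igf2r) of GRCm38, and all are protein coding. Igf1r spans 280842 bases, of which 5.98% are exonic, and Igfbp7 spans 58802 bases, of which 2.06% are exonic. Whether intronic reads were counted is not stated, so that levels of different genes were not compared. Igf2r overlaps the antisense gene Airn, and Igfbp7 overlaps Polr2b on the opposite strand.

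RefSeq promoters (GRCm38.p6) were on hand for 10 of the 10 members. Those of the 4 binding proteins whose ASC levels separated the depots most are shown 5′ to 3′ as the 250 bases before the start site (231 for Igfbp5, where the rest is transcribed in GENCODE). Capitals mark the TATA box TATAAA, the GC box GGGCGG and the hypoxia response element core ACGTG, each searched on both strands. The windows are chr1:72874885-72875115 (minus strand) for Igfbp5, chr11:7213924-7214173 (minus) for Igfbp3, chr15:102143936-102144185 (plus) for Igfbp6 and chr5:77408046-77408295 (minus) for Igfbp7.
Igfbp5: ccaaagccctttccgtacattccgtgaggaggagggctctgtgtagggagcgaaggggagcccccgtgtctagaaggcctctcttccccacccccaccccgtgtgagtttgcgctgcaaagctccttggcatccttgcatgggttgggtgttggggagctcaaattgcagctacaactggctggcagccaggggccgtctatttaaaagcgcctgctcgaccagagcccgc
Igfbp3: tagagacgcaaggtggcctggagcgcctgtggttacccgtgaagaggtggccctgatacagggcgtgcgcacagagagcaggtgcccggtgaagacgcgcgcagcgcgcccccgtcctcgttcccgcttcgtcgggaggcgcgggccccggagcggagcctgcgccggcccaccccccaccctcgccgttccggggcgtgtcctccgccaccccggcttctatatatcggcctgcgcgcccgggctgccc
Igfbp6: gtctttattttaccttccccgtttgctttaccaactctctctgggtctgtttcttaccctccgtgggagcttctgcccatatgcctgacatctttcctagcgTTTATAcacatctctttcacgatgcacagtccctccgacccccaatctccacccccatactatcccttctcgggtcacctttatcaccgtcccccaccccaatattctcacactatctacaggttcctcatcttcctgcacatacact
Igfbp7: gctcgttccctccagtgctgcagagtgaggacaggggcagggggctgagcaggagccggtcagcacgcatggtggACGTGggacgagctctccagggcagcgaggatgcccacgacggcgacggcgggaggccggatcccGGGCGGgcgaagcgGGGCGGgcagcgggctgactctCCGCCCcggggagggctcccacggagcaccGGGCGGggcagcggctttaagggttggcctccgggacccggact
The Igfbp7 window held 4 GC boxes and 1 hypoxia element core, and the Igfbp6 window held 1 TATA box on the opposite strand. None of these letters occurred in the Igfbp5 and Igfbp3 windows. Of 32851 RefSeq promoters of 250 bases, 12.4% held TATAAA, 32.7% held GGGCGG and 16.6% held ACGTG on either strand.

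The first question was which cells of the tissue carried the axis. ASC held 94.7% of all Igf1 UMIs, 89.3% of those of Igfbp5, 87.4% of Igfbp7, 79.4% of Igfbp4, 77.9% of Igfbp3, 76.1% of Igfbp6 and 60.1% of Igf2r. They held 36.6% of the Igf1r UMIs, 14.3% of those of Igf2 and 6.82% of those of Igfbp2. These shares depend on how many cells of each class were captured.

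The ligand Igf1 was at 343 CPM in ASC over all libraries (333 to 353, exact 95% Poisson interval, counting error only). It was at 119 CPM in mesothelial-marker cells and at 37.6 CPM in macrophages, where 11 of 101 cells had a UMI. In T cells and in B cells a single Igf1 UMI was found among 1881 and 821 cells. Across the 4 libraries, edgeR's quasi-likelihood test with the library as a block called Igf1 higher in ASC than in macrophages (log2 fold change 3.28, SE 0.35, adjusted p = 6.51e-08). Macrophages in turn stood above T cells (edgeR adjusted p = 7.60e-09), but on few cells. A single cell held 21 of the 43 macrophage UMIs in WT IP and 11 of the 14 in KO IP. The SC sums of 4 (WT) and 2 (KO) macrophages held 1 and 0 Igf1 UMIs.

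Igf2, the fetal growth factor, was nearly silent, with 42 UMIs in all analysed cells. Of these, 31 were in EC (75.7 CPM, 51.4 to 107), in 5 of 24 cells. In WT IP the 17 EC held 25 of the 31, with 13 from 1 cell. The 1 cell of WT SC held 6, and the 5 cells of KO IP held 0. The 6 EC without a UMI of the lymphatic markers Prox1 and Mmrn1 held 28 of the 31 UMIs in 4 cells, a split made after values were seen. Most of the class, 18 cells, had such a UMI. Igfbp4 was at 632 CPM in those 18 cells and at 1251 CPM in the 6, and Igfbp5 at 379 and 0 CPM. ASC had 1 or 2 Igf2 UMIs per library.

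The signalling receptor Igf1r was seen in most stromal and in many immune cells. Its highest level was in neutrophils, at 1220 CPM (1073 to 1382), with a UMI in 35 of 40 cells at a median depth of 4476 UMIs. By library, neutrophils with at least 10 cells gave 1283 and 1353 CPM. In the order WT SC, KO SC, WT IP and KO IP, T cells were at 130, 166, 205 and 590 CPM and ASC at 242, 264, 137 and 140 CPM, so that ASC were the higher of the pair in SC and T cells in IP. Mural cells were at 190 CPM over 23 cells and macrophages at 80.8 and 90.1 CPM in the IP libraries. B cells, at 4.89 CPM, had the lowest level of Igf1r among the classes. ASC and T cells did not differ beyond their spread (log2 fold change -0.20, SE 0.40, edgeR adjusted p = 0.679), while Igf1r was higher in ASC than in macrophages (1.68, SE 0.51, adjusted p = 0.00951). The latter call rested partly on SC sums of 4 and 2 macrophages, and it was lost when sums of fewer than 10 cells were left out (1.25, adjusted p = 0.0577).

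Within T cells, Igf1r followed Trdc, the constant region of the gamma delta T cell receptor. T cells with a Trdc UMI held 400 CPM (345 to 461, WT SC), 687 (KO SC), 741 (WT IP) and 1610 CPM (1480 to 1748, KO IP). T cells without one held 99.3, 108, 88.2 and 150 CPM in the same order. The counting intervals did not meet in any of the 4 libraries. A Trdc UMI was found in 47, 132, 21 and 39 of the T cells, and this split was made after values were seen.

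The clearance receptor Igf2r was more even, at 75.4 to 117 CPM in ASC and 37.2 to 51.1 CPM in T cells. It was higher in ASC than in T cells (log2 fold change 1.17, SE 0.27, edgeR adjusted p = 0.000510) and than in macrophages (2.09, SE 0.42, adjusted p = 0.000227). The macrophages held 32 Igf2r UMIs, in 13 of 101 cells. In WT SC, WT IP and KO IP they were below ASC. In KO SC they were above, at 112 against 75.4 CPM, from 5 UMIs in 1 of 2 macrophages.

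Of the binding proteins, Igfbp4 was at 1092 CPM in ASC, 850 in mesothelial-marker cells, 743 in mural cells and 733 in EC, over all libraries. Mural cells were above ASC in WT SC (1070 against 702 CPM, 5 mural cells) and WT IP (1566 against 1041, 1 cell). They were below ASC in KO SC (729 against 873, 8 cells) and KO IP (538 against 1410, 9 cells). In T cells Igfbp4 was at 148 and 122 CPM in the WT and KO libraries of SC and at 22.1 and 6.82 CPM in those of IP, and it was higher in ASC (log2 fold change 3.96, SE 0.60, edgeR adjusted p = 2.61e-06). Igfbp7 was highest in mural cells, at 3927 CPM (3723 to 4140) over 23 cells. Igfbp5 was at 2302 CPM there (2147 to 2466), but 635 of the 812 UMIs came from the 9 cells of KO IP. In SC, Igfbp5 was lower in mural cells, at 1150 and 717 CPM, than in ASC, at 4067 and 3099 CPM. Igfbp6 was highest in mesothelial-marker cells, at 3213 CPM (3128 to 3300), but 5095 of the 5347 UMIs came from the 31 cells of KO IP. No Igfbp6 UMI was found in mural cells, which allows up to 8.51 CPM. Igfbp3 was at 51.3 CPM in EC, but all 21 UMIs came from 2 cells. Igfbp2 had 41 of its 44 UMIs in mesothelial-marker cells, in 5 cells, with 20 from a single cell. Of the 41, 33 were in 3 of the 4 cells of WT IP and 8 in 2 of the 31 cells of KO IP.

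**Figure D1:**
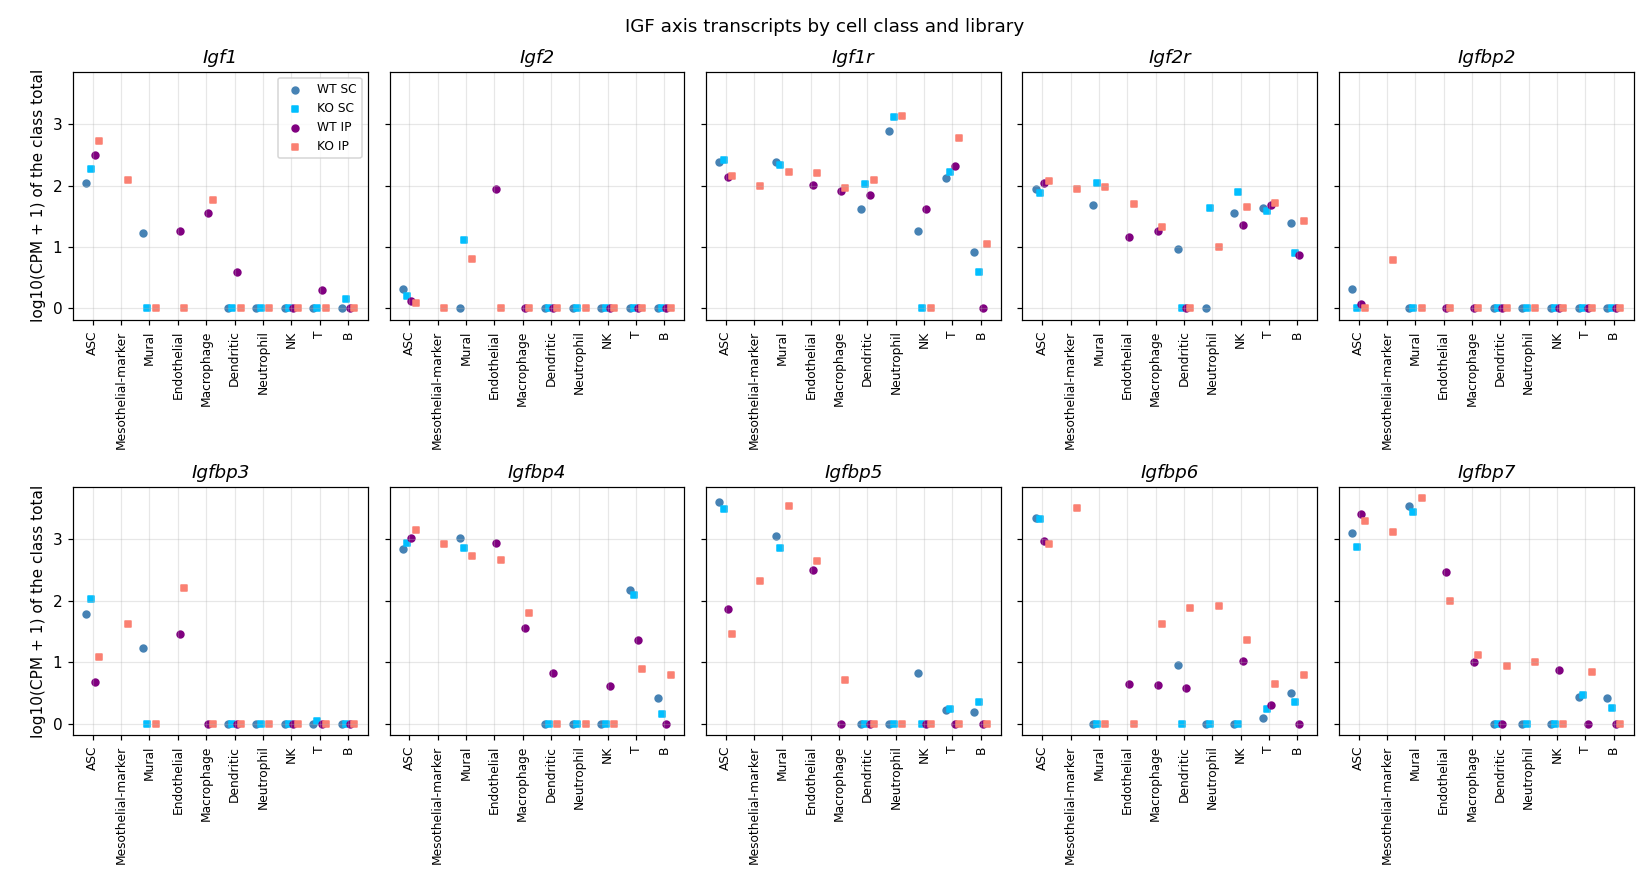
Level of each member by cell class, as log10(CPM + 1), with a point per library that had at least 5 cells of the class. Igf1 is high in ASC and at most 1 UMI in T and B cells, Igf1r peaks in neutrophils, Igfbp7 in mural cells and Igfbp6 in mesothelial-marker cells, while the highest points of Igfbp5 are ASC of WT SC (4067 CPM) and mural cells of KO IP (3452 CPM).

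Of the 7 members with enough UMIs for the test, 6 were higher in ASC than in T cells and none was lower, where 33.2% of all 10527 genes tested were higher and 29.8% lower. All 7 were higher in ASC than in macrophages, where 23.7% of all genes were higher and 17.0% lower. These counts were partly set by the filter on UMIs. Igf1, Igfbp5, Igfbp6 and Igfbp7 had 1, 10, 13 and 33 UMIs in T cells and 58, 1, 14 and 14 in macrophages. They entered the test through their ASC counts and could hardly have come out lower. Between macrophages and T cells, Igf1 and Igfbp6 were higher and Igf1r was lower in macrophages (log2 fold change -1.88, SE 0.49, edgeR adjusted p = 0.00396), where 17.5% and 17.9% of all genes passed. Igf2, Igfbp2 and Igfbp3 were not tested here because their counts were too low. As a measure of free RNA, the 8 stromal reference genes were found in B cells at 0.0450% to 0.153% of their ASC level, and Igfbp5 was there at 0.0130% and 0.0394% in the SC libraries. Those genes summed to 25.9 CPM in macrophages and 5.73 CPM in T cells, and the Igfbp6 call in macrophages rested on 14 UMIs (3.27 CPM in WT IP and 40.9 CPM in KO IP), where the part of free RNA was not tested.

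The second question was how the members differed between depots in ASC. Igfbp5 showed the widest gap. In SC it was at 4067 CPM in WT (3975 to 4160) and 3099 CPM in KO (3017 to 3183). In IP it was at 72.6 CPM in WT (66.0 to 79.6) and 27.3 CPM in KO (22.7 to 32.6), so the depots did not overlap. The log2 ratio, IP against SC, was -5.81 (-5.95 to -5.67) in WT and -6.82 (-7.09 to -6.57) in KO. Over all ASC, 70.2% (WT SC), 76.0% (KO SC), 13.6% (WT IP) and 7.73% (KO IP) had an Igfbp5 UMI. Thinning to 5000 UMIs left out the 29, 24, 46 and 47 shallower ASC, and of the remaining 75, 105, 241 and 173 cells the shares were 76.0%, 67.6%, 10.8% and 4.62%.

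Igfbp3 and Igfbp6 were also higher in SC. Igfbp3, the main carrier of IGFs in blood, was at 59.5 and 104 CPM in WT SC and KO SC and at 3.68 and 11.3 CPM in WT IP and KO IP. Its UMIs came from few cells, with 14 and 22 of the SC cells and 15 and 8 of the IP cells positive. Igfbp6, which binds IGF2 by preference, was at 2212 and 2182 CPM in SC and at 928 and 853 CPM in IP. The log2 ratios, IP against SC, were -3.99 (-4.73 to -3.35) and -3.19 (-3.67 to -2.74) for Igfbp3 in WT and KO. For Igfbp6 they were -1.25 (-1.31 to -1.20) and -1.35 (-1.42 to -1.29).

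Igf1 and Igfbp7 went the other way. In SC, Igf1 was at 108 CPM in WT (93.1 to 124) and 184 CPM in KO (164 to 205). In IP it was at 317 CPM in WT (303 to 332) and 537 CPM in KO (516 to 559). Of the ASC with at least 5000 UMIs, thinned to that number, 26.7% had an Igf1 UMI in both SC libraries, against 58.9% in WT IP and 62.4% in KO IP. Igfbp7, a matrix-associated protein that binds IGFs weakly, was at 1268 and 764 CPM in SC and at 2606 and 2013 CPM in IP. The log2 ratios were 1.56 (1.35 to 1.78) and 1.54 (1.38 to 1.72) for Igf1, and 1.04 (0.98 to 1.10) and 1.40 (1.31 to 1.48) for Igfbp7, in WT and KO.

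The receptors and Igfbp4 stayed within a log2 ratio of 1. In WT and KO, the log2 ratios of Igf1r were -0.82 and -0.92, those of Igf2r 0.30 and 0.62, and those of Igfbp4 0.57 and 0.69, each beyond counting error. Among ASC in which fewer than 2 of 5 progenitor markers were seen, the receptors were within counting error, Igf1r at 0.036 (-0.66 to 0.91) and 0.07 (-0.48 to 0.66) and Igf2r at -0.31 and -0.19.

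In all, 5 of the 8 members compared passed a log2 ratio of 1 in either genotype, where 15.8% of 11775 genes did so in WT and 17.3% of 11461 in KO. In both genotypes alike, Igf1 and Igfbp7 were past it upward, which 4.65% of 11174 genes were in both, and Igfbp3, Igfbp5 and Igfbp6 downward, which 3.69% were. With each cell weighing the same, Igfbp7 was at 0.66 in WT, below that limit, and 4 of 8 members passed it in WT. The median log2 ratio of the members was -0.26 in WT and -0.15 in KO, beside 0.07 and 0.09 over all genes. A fit of the 4 ASC sums with the genotype as a block, chosen after seeing the data, treats the WT and KO libraries of a depot as replicates and left 1 residual degree of freedom. In it, edgeR called 7 of the 8 members between the depots, Igf1, Igfbp4 and Igfbp7 higher in IP and Igf1r, Igfbp3, Igfbp5 and Igfbp6 lower, where 7.57% and 10.7% of 11565 genes were. Igfbp5 stood at -6.35 (SE 0.30, adjusted p = 2.83e-10) and Igf1 at 1.49 (SE 0.18, adjusted p = 1.32e-05), while Igf2r did not pass (0.40, SE 0.16, adjusted p = 0.111). Within a genotype, depot and library cannot be told apart.

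**Figure D2:**
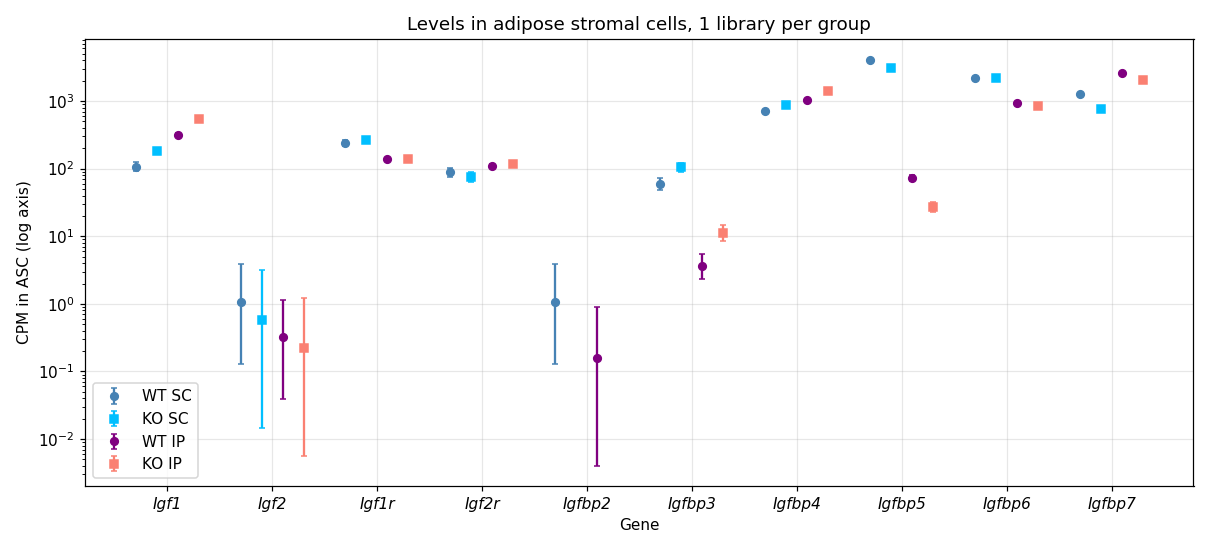
Level of each member in ASC in CPM on a log axis, 1 point per library, with exact 95% Poisson intervals. Libraries without a UMI (Igfbp2 in both KO libraries) are not drawn. Igfbp5 stands at 4067 and 3099 CPM in SC and at 72.6 and 27.3 in IP, while Igf1 and Igfbp7 are higher in IP.

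The depots held different mixes of ASC. ASC in which at least 2 of the 5 progenitor markers Dpp4, Pi16, Sema3c, Cd55 and Anxa3 were seen made 76.9% (WT SC), 80.6% (KO SC), 62.4% (WT IP) and 71.8% (KO IP) of the ASC. Among the remaining ASC, the log2 ratio of Igfbp7, IP against SC, was -0.04 (-0.17 to 0.10) in WT and -0.06 (-0.20 to 0.08) in KO, within counting error. Among ASC with the progenitor call it was 1.13 (1.06 to 1.20) and 2.13 (2.01 to 2.24). Of the 1867 Igfbp7 UMIs of these cells in WT SC, 1181 were in the 16 cells in which 2 markers were seen, the least the call allows, at 3918 CPM. In KO SC, 9 such cells held 254 of 666 UMIs, at 2128 CPM. For Igfbp5 the remaining ASC still gave -2.18 (-2.83 to -1.46) in WT and -6.41 in KO, the latter from 1 UMI against 63.

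Across the 4 libraries, Igfbp5 was the only member that passed the test between ASC with and without the progenitor call. Its log2 fold change was 3.19 (SE 0.55, edgeR adjusted p = 0.0289), and 1 of 8 members tested was higher and none lower, where 0.617% and 0.0515% of 9718 genes were. Igfbp6 stood at 0.89 (SE 0.20, adjusted p = 0.0888) and Igfbp7 at -1.26 (SE 0.35, adjusted p = 0.170), which did not pass. The Igfbp5 call was lost without WT SC (2.62, adjusted p = 0.279) and without KO SC (2.73, adjusted p = 0.139). ASC without the call were shallower in every library, with medians of 2949 to 12026 UMIs against 15970 to 26440. The part of depth was tested only by calling the subset on cells thinned to 3000 UMIs, where Igfbp5, Igfbp6 and Igf1 passed.

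The number of progenitor markers seen separated the SC cells further. In WT SC, the 51 ASC with all 5 markers held 7280 of the 7524 Igfbp5 UMIs and stood at 5919 CPM, and in KO SC the 75 such cells stood at 4471 CPM. The same cells held little Igfbp7, at 202 and 162 CPM. Cells with no progenitor marker stood at 198 and 390 CPM of Igfbp5 and at 3505 and 3203 CPM of Igfbp7. Igf1 was at 77.2 and 49.7 CPM in the cells with all 5 markers. In IP, cells with all 5 markers had 263 (WT) and 69.5 CPM (KO) of Igfbp5 and 1600 and 1444 CPM of Igfbp7. These steps are described without a test, and cells in a step share their library.

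**Figure D3:**
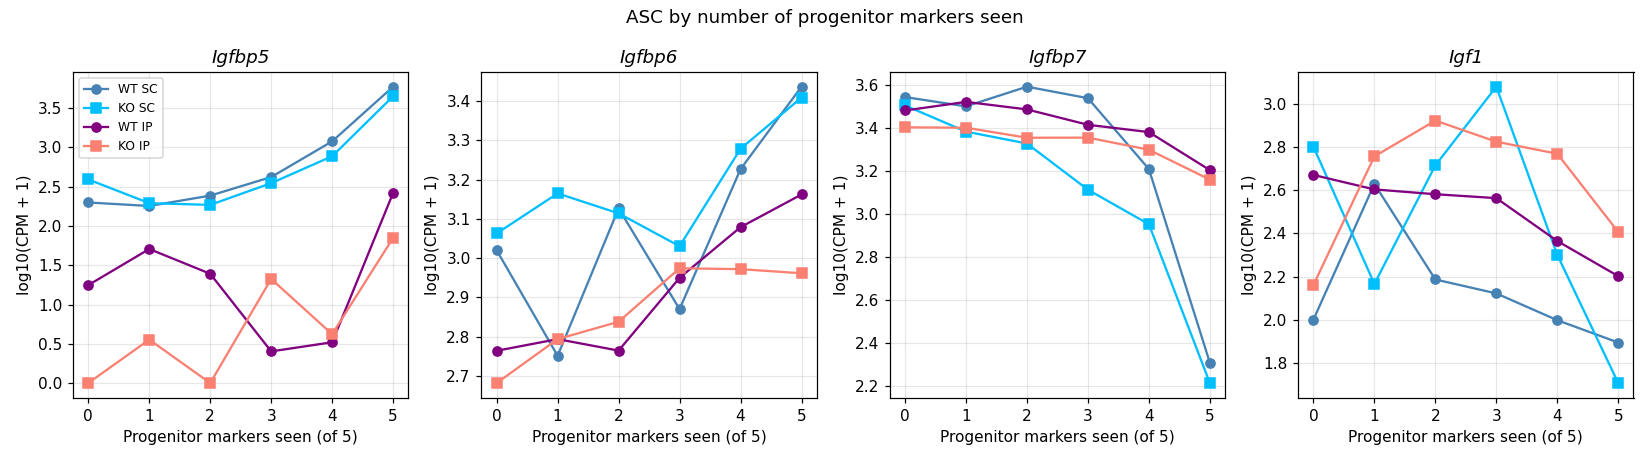
Level of 4 members in ASC, as log10(CPM + 1), against the number of the 5 progenitor markers seen in a cell, 1 line per library. In SC, Igfbp5 is highest (5919 and 4471 CPM) and Igfbp7 lowest (202 and 162 CPM) where all 5 markers were seen.

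The third question was whether the KO changed the axis in ASC. No test was made within a depot, since each group had 1 library, and the intervals cover counting error only. Igf1 was higher in KO in both depots, by a log2 ratio of 0.77 (0.52 to 1.04) in SC and 0.76 (0.67 to 0.85) in IP. In KO SC 22.0% of its UMIs came from 1 cell and 53.7% from 5 cells, and leaving out the highest cell of each library gave 0.62 (0.33 to 0.91) in SC and 0.80 (0.71 to 0.89) in IP. With each cell weighing the same, Igf1 was at 0.95 in SC and 0.33 in IP. Among ASC without the progenitor call it was within counting error, at 0.07 (-0.51 to 0.68) in SC and 0.17 (-0.06 to 0.38) in IP. In SC, the cells with all 5 progenitor markers (51 WT and 75 KO) stood at 77.2 CPM in WT and 49.7 CPM in KO. The SC cells with 3 markers (6 WT and 10 KO) stood at 131 and 1206 CPM. Of the SC cells thinned to 5000 UMIs, 26.7% had an Igf1 UMI in WT and in KO. In IP, Igf1 was seen in 77.7% of the 287 WT and 64.5% of the 220 KO ASC. Of the 241 and 173 of these with at least 5000 UMIs, thinned to that number, it was seen in 58.9% and 62.4%.

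Among the binding proteins, Igfbp4 was slightly higher in KO, by 0.31 (0.21 to 0.42) in SC and 0.44 (0.39 to 0.49) in IP. With each cell weighing the same, the IP value was 0.13. Among ASC without the progenitor call Igfbp4 was within counting error, at -0.35 (-0.74 to 0.055) in SC and 0.0063 (-0.15 to 0.15) in IP. Igfbp3 was higher by 0.80 (0.46 to 1.16) in SC and 1.61 (0.89 to 2.40) in IP. In KO IP 28 of the 51 Igfbp3 UMIs were from a single cell, and without the highest cell of each library the IP value was 0.74 (-0.19 to 1.71), within counting error. In SC the same step gave 1.09 (0.69 to 1.52), and ASC without the progenitor call gave -0.014 (-0.99 to 1.07).

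Igfbp5 and Igfbp7 were lower in KO. Igfbp5 was lower by -0.39 (-0.44 to -0.34) in SC and -1.40 (-1.71 to -1.12) in IP, where 17 of 220 KO cells and 39 of 287 WT cells carried it. Among ASC without the progenitor call the SC value was 0.38 (-0.28 to 1.10), from 63 and 27 UMIs. Igfbp7 was at -0.73 (-0.83 to -0.63) in SC and -0.37 (-0.41 to -0.34) in IP. With the shared barcodes kept, the SC value of Igfbp7 was -0.62. Within ASC with the progenitor call Igfbp7 was at -1.30 (-1.43 to -1.17) in SC and -0.30 in IP, where the SC value draws on the 16 and 9 cells with 2 markers seen that were described above. In cells with all 5 markers it was at 202 (WT) and 162 CPM (KO) in SC. Igfbp6 was level in SC (-0.02, -0.08 to 0.04) and slightly lower in IP (-0.12, -0.18 to -0.06). The receptors were within counting error in both depots, Igf1r at 0.13 (-0.06 to 0.32) and 0.03 (-0.12 to 0.18) and Igf2r at -0.22 (-0.57 to 0.12) and 0.10 (-0.07 to 0.26).

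None of the 8 members compared passed a log2 ratio of 1 in SC, where 5.73% of 9928 genes did. In IP, 2 of 8 passed, Igfbp3 upward and Igfbp5 downward, where 6.08% of 12389 genes did. Beyond counting error and in 1 direction in both depots were 5 of 8 members, 3 higher and 2 lower, against 7.74% of 9782 genes (4.11% higher and 3.63% lower). Counting intervals are narrower for genes with more UMIs, and the members compared had 23 to 16269 UMIs per library. The median over the members was 0.05 in SC and 0.06 in IP, beside -0.00 and 0.05 over all genes.

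A fit of the 4 ASC sums with the depot as a block, also chosen after seeing the data, treats the depots as replicates with 1 residual degree of freedom, and whether they came from separate mice was not stated. In it, edgeR called 1 of 8 members, Igfbp3, higher in KO (log2 fold change 1.06, SE 0.23, adjusted p = 0.0326), where 0.536% of 11565 genes were higher and 0.346% lower. That call was lost without the highest cell of each library (0.99, adjusted p = 0.0828), which left 0 members called and 4 at an unadjusted p below 0.05. Igf1 (0.75, SE 0.18, adjusted p = 0.0571), Igfbp5 (-0.87, SE 0.24, adjusted p = 0.135) and Igfbp7 (-0.57, SE 0.20, adjusted p = 0.287) did not pass.

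**Figure D4:**
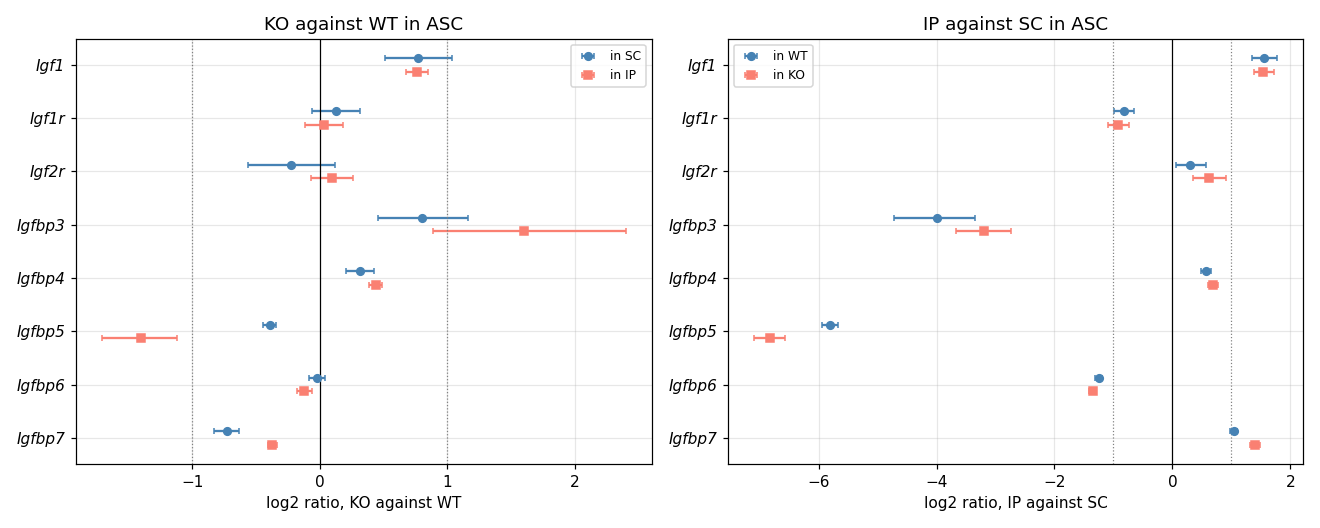
Log2 ratios of the 8 members compared in ASC, KO against WT (left) and IP against SC (right), with exact conditional binomial 95% intervals and dotted lines at 1 and -1. Igf1, Igfbp3 and Igfbp4 lie above 0 and Igfbp5 and Igfbp7 below 0 in both depots for KO against WT, and the depot ratios of Igfbp5 reach -5.81 and -6.82.

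The wider pathway was followed with a list of 26 further genes, of which 20 to 22 had enough UMIs in a comparison. The genes past a log2 ratio of 1 in both comparisons of a kind were proteases of the binding proteins. Pappa2, a pappalysin that cleaves IGFBP3 and IGFBP5, was higher in KO in both depots, by a log2 ratio of 4.15 (3.01 to 5.94) in SC and 3.37 (2.38 to 4.72) in IP. Its UMIs were few, 5 (WT SC), 92 (KO SC), 8 (WT IP) and 63 (KO IP). In KO SC 76 of the 92 were from 1 cell, and without the highest cells the SC ratio was 2.32 (0.69 to 4.92) and the IP ratio 3.84 (2.54 to 5.93). In KO IP the UMIs were spread over 15 cells. It was the single gene of the list past a log2 ratio of 1 in both depots, where 0.419% of 9782 genes rose so. Pappa, the pappalysin that cleaves IGFBP4, was higher in IP in both genotypes, by 2.73 (1.89 to 3.87) in WT and 1.56 (0.77 to 2.57) in KO, where 4.65% of 11174 genes did so. It was seen in 67 of 287 ASC in WT IP and in 4 of 104 in WT SC, and in 25 of 220 in KO IP and 5 of 129 in KO SC. The SC sums were 10 (WT) and 13 UMIs (KO), with 7 and 8 from 1 cell, and in KO IP 28 of 102 were from 1 cell. Without the highest cell of each library the ratios were 4.18 (2.83 to 6.68) in WT and 2.40 (1.24 to 4.19) in KO.

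Of the 18 pathway genes tested between classes, 11 were higher and 2 lower in ASC than in T cells, where 33.2% of all genes were higher and 29.8% lower. Against macrophages 9 were higher and 1 lower in ASC, beside 23.7% and 17.0% of all genes. Those higher in both were Ghr, the growth hormone receptor, the receptor substrates Irs1 and Irs2, the adaptor Shc1, the receptor inhibitors Grb10 and Socs2, the secreted protease Htra1, and Lrp1, an endocytic receptor. Ghr stood at 8.53 over macrophages (SE 0.66, edgeR adjusted p = 5.17e-10) and Irs1 at 5.48 (SE 0.73, adjusted p = 8.52e-07) on the log2 scale. As for the members, genes counted almost only in ASC could enter the class tests through ASC and could hardly come out lower. None of 19 pathway genes tested passed between ASC with and without the progenitor call.

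Outside ASC, T cells gave another depot gap in Igfbp4. T cells with Cd4 and no Cd8 UMI of SC held 180 CPM of Igfbp4 in WT (158 to 204) and 147 CPM in KO (132 to 163). Those of IP held 21.5 CPM in WT (6.99 to 50.2, from 5 UMIs) and 11.4 CPM in KO (2.34 to 33.2, from 3 UMIs). T cells with a Trdc UMI held 69.8 and 29.1 CPM in SC, and no Igfbp4 UMI was found in the 21 and 39 such cells of IP. The SC intervals lay above the IP intervals in the Cd4 cells of both genotypes. The depots also held different Cd4 cells, and the part of that mix in the gap was not tested. Ccr7, a receptor of naive and central memory T cells, was seen in 98 of 128 and 240 of 320 of them in SC, and in 4 of 33 and 7 of 30 in IP. Among Cd4 cells with a Ccr7 UMI, Igfbp4 was at 179 CPM (155 to 206) in WT SC and 137 CPM (37.3 to 351) in WT IP, which overlap. In KO it was at 173 (155 to 193) in SC and 42.4 CPM (8.74 to 124) in IP, which do not overlap. The KO IP value rests on 3 UMIs seen in 14.3% of its 7 cells, the same 3 UMIs as in all Cd4 cells of KO IP. Intervals of counting error do not cover the spread between cells. Cd4 cells without a Ccr7 UMI held 182.8 CPM in WT SC and 4.92 CPM in WT IP, and 56.4 and 0 CPM in KO. For these cells the SC and IP intervals did not meet in WT or in KO, on 29 (WT) and 23 (KO) IP cells.

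By Pearson's r of log2 levels over 16 class sums from 6 classes, the genes most like each member were as follows, as a description of sums that share libraries. Igf1 was closest to Pkdcc (0.994), Hpgd (0.989) and Ace (0.989). Igfbp3 and Igfbp5 both had Emx2 among their closest genes (0.991 and 0.985), with Stmn4 (0.997) first for Igfbp3 and Car8 (0.987) first for Igfbp5. Igfbp7 was closest to Col15a1 (0.989), Igfbp6 to Pla1a (0.973), Igf2r to Rtl8a (0.967), Igfbp4 to Ppic (0.958) and Igf1r to Galm (0.929).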

How the data were processed

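Per the file headers, the authors had run Cell Ranger 7.0.0 and deposited counts of UMIs for every gene and barcode, with no normalization, and the submitters' processing notes name STAR 2.6 and mm10. A barcode needed 200 genes or more and no more than 25% mitochondrial UMIs. Scrublet (scanpy 1.11.5, expected rate 5%) marked 0.309% to 0.711% of each library as doublets, which were removed. A cell took the class with the highest mean log marker UMIs, with at least 2 markers seen and 2 times the runner-up. Summed UMIs were compared as log2 ratios after adding 0.5 UMI, where the pair of libraries held at least 20 UMIs of a gene, with exact conditional binomial 95% intervals. Classes and ASC subsets were tested with edgeR 4.0.16 (quasi-likelihood, Benjamini-Hochberg, threshold 0.05) over 4 libraries as blocks. The same test over the 4 ASC sums, with genotype and depot as terms, was added after seeing the data. A count of 0 was taken to allow 3 counts. Ratios and fits were run on simulated counts, drawn with counting error alone for the ratios and with a fixed spread for the fits. Such draws cannot speak to the spread between mice. Depth is given with the results, intervals and floors cover counting error alone, and p-values of the class and subset tests measure the spread between these 4 libraries. The fit of the 4 ASC sums had no repeat library of a group. Its spread came from 1 residual degree of freedom and from values shared over genes, so its p-values do not measure variation between mice.

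Named genes were the 10 members, pathway genes past the fold in both depots or both genotypes or called in both class contrasts, and the genes most like each member. The members and lists were chosen with earlier results of these data known. Alternatives were DESeq2 1.42.0, other filters, weights, scalings, class and subset rules, and leaving out each library. R 4.3.3 and Python 3.11.15 were used, with matplotlib 3.10.9, anndata 0.12.19, pandas 2.3.3 and numpy 2.4.6.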

Additional observations from a re-analysis of the deposited data

Results flagged for a closer look

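A pair of pathway genes moved in opposite directions beyond counting error in the 2 depots or genotypes, and neither difference was tested, since each group had 1 library. Ghr, the growth hormone receptor, was lower in KO ASC of SC (log2 ratio -0.87, -1.07 to -0.67) and higher in IP (0.13, 0.02 to 0.24), though with median-of-ratios scaling the IP value was within counting error (0.07, -0.039 to 0.18). Between depots, IP against SC, Ghr was at -0.42 (-0.55 to -0.28) in WT and 0.57 (0.40 to 0.76) in KO. These comparisons share libraries. Grb10, an adaptor that inhibits the IGF1 receptor, was lower in KO ASC of SC (-0.29, -0.47 to -0.11) and higher in IP (0.83, 0.70 to 0.96).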

How the results depend on the processing

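No paired analysis was possible because the labels give no replicate numbers and each group had 1 library. Of 414 log2 ratios of the members under the alternatives, 354 stayed within their main counting interval. In all 17 changed sign, 11 of them in ASC without the progenitor call, and 9 of the 17 had been beyond counting error. These 9, all in ASC without the call, were for IP against SC in WT and KO Igfbp7 (-0.035 and -0.061), Igf1r (0.036 and 0.068) and Igf2r (-0.31 and -0.19), and for KO against WT in SC Igfbp3 (-0.014), Igfbp4 (-0.35) and Igfbp5 (0.38). In these cells the number of members past the fold was 1 in WT and 3 in KO in place of 5, and 1 in IP for KO against WT in place of 2. There Igfbp3 fell below the minimum of 20 UMIs in 2 comparisons and was not counted. Its log2 ratio was -4.81 (-6.72 to -3.34) for IP against SC in WT and 2.75 (1.22 to 4.69) for KO against WT in IP. The number past the fold in SC was 1 in place of 0 with no minimum of UMIs, with each cell weighing the same, with ASC of the progenitor call alone and with the highest cell of the gene left out, an alternative chosen after seeing the data that gave 1 in IP. In the fit over both depots the same alternative called 0 members for KO against WT in place of 1, and no library could be left out of that fit without losing its residual degree of freedom. In ASC without the call, Igf1 was at 0.07 in SC and 0.17 in IP, KO against WT, from fewer cells.

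In the class tests, Igf1r in ASC against T cells was at 0.21 with DESeq2 and at -0.60 to 0.35 when 1 library was left out (0.035 without WT IP), none past the threshold. For macrophages against T cells, leaving out 1 library gave -1.57 to 0.11 for Igfbp4 (0.079 without KO SC) and -0.35 to 4.46 for Igfbp5, and neither passed the threshold where its sign changed. Leaving out 1 library gave 6 to 7, 7 to 8 and 2 to 4 members called in the 3 class contrasts, and 0 to 1 between the ASC subsets. That last number was 3 with DESeq2, with no filter and with the subset called after thinning to 3000 UMIs, in place of 1. The cause was not tested. Depth limits Igf2 and Igfbp2, which had at most 2 UMIs per ASC library.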
